A study of Danio rerio with 12 samples.

Results

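Regrown caudal fin tissue of zebrafish larvae exposed to TCDD was compared between 3 and 2 days post amputation (dpa). TCDD (2,3,7,8-tetrachlorodibenzo-p-dioxin) is a persistent dioxin that blocks fin regeneration, and the comparison asks how gene expression in the blocked regenerate progressed from one day to the next. The members are the 6 arrays labelled TCDD, 3 at 3 dpa and 3 at 2 dpa, of 12 in all. The other 6 arrays hold vehicle fins, 3 at 3 dpa and 3 at 2 dpa, and enter as the course of regrowth without TCDD. All larvae were of the AB strain, lost the caudal fin at 2 days of age, and spent 1 h in water with 0.5 ng/mL TCDD or with the solvent DMSO, after which they were rinsed and kept in clean water. Each array was hybridised with RNA from a pool of 150 fins, so an array averages many larvae and all cell types of the regrown tissue. In such bulk RNA, fewer cells of a type and less RNA per cell cannot be told apart. The labels call the pools separate groups of larvae and do not say whether they came from separate clutches, so the p-values measure the spread between these pools only.

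The regenerating larval fin consists of a wound epidermis that covers the stump, a proliferating mesenchyme beneath it called the blastema, and a fin fold stiffened by actinotrichia, collagenous fibrils that hold the actinodin proteins And1 and And2. Wnt, FGF, BMP and retinoic acid signals between the epidermis and the blastema drive outgrowth. TCDD binds the aryl hydrocarbon receptor (AHR), which pairs with Arnt and induces target genes such as the cytochrome P450 gene cyp1a. In zebrafish, the secreted Wnt enhancer gene rspo1 is known as a gene that TCDD induces in the fin and that is needed for the block of regrowth.

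Values are ratios. Every probe set is scaled on its own among the 12 arrays. A ratio of 1 is the median array for 12064 of the 15617 probe sets deposited, and 3553 have a median below 1. Ratios of different genes cannot be compared as levels, and presence or absence of a transcript cannot be read from them. Changes below are log2 differences of group means, 3 dpa minus 2 dpa, so a change of 1 is a doubling, and per-array values are given in the order of arrays 1, 2 and 3 of each day. The labels matched the exposure marker: cyp1a had ratios of 2.05, 4.3 and 1.98 at 3 dpa, against 3.17, 2.41 and 2.28 at 2 dpa in TCDD fins, whereas vehicle fins had ratios of 0.00398, 0.0241 and 0.0127 at 3 dpa, against 0.0196, 0.0159 and 0.000773 at 2 dpa. The tissue label could not be tested against presence of its markers for the reason given above.

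Several arrays stood apart. Estimates and counts without them are given below, and the cause of their difference was not tested. Hybridisation control probe sets, which report RNA added at the hybridisation step, read 0.335 on the log2 scale on TCDD 3 dpa array 2 and −0.105 to −0.064 on the other 5 TCDD arrays. They also read high on all 3 vehicle 3 dpa arrays (0.246 to 0.306), against −0.135 to 0.0086 on the vehicle 2 dpa arrays. TCDD 3 dpa array 3 held 122 probe sets at more than 4-fold below a ratio of 1, against 3 to 29 on the other TCDD arrays. Its log2 ratio was 0.486 higher for the 5′ GAPDH control than for the 3′ one, against 0.169 to 0.278 on the other TCDD arrays. Each control is scaled on its own, so this difference compares arrays and not the levels of 5′ and 3′ signal. The TCDD arrays also did not sort by day, as described next.

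Between 3 and 2 dpa no gene was shown to change in TCDD fins beyond the spread between arrays of a group. Of 15502 probe sets, limma called 0 (0%) after Benjamini-Hochberg adjustment, at a threshold of 0.05, and the lowest adjusted p was 0.983. At an unadjusted p under 0.05 there were 366 higher (2.36%) and 255 lower (1.64%) at 3 dpa. In 531 probe sets (3.43%) every 3 dpa array read above every 2 dpa array, and in 328 (2.12%) every one read below. The median change was 0.022 and the median standard error 0.17, which gives a 95% interval of 0.38 to each side, or 1.3-fold. For 13586 probe sets (87.6%) the whole interval lay within 2-fold in either direction. These intervals use a spread pooled over all 4 groups. The median SD over probe sets was 0.22 and 0.17 for TCDD arrays at 3 and 2 dpa. For vehicle arrays it was 0.17 and 0.12, so the pooled spread can understate that between TCDD arrays. A fit of only the 6 TCDD arrays also called 0. Only 107 probe sets had an estimate beyond 2-fold, 29 of them higher and 78 lower. An exact permutation test of 3 arrays against 3 cannot give a p below 0.1. Leaving out any 1 of the 12 arrays also gave 0 calls. Leaving out TCDD 2 dpa array 3 and TCDD 3 dpa array 2 together gave 364 calls, 256 higher and 108 lower. Those 2 arrays were chosen by their values, so that count is no support for a day change.

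The TCDD arrays resembled each other more by another split than by day. TCDD 2 dpa array 3 correlated with TCDD 3 dpa array 1 at r = 0.885 and with TCDD 3 dpa array 3 at 0.671, over the log2 ratios of all 15502 probe sets. With arrays 1 and 2 of its own day it correlated at 0.446 and 0.464. TCDD 3 dpa array 2 correlated at 0.291 and 0.33 with the other arrays of its day, and at 0.441 and 0.533 with TCDD 2 dpa arrays 1 and 2. Its highest correlation of all was 0.574, with vehicle 3 dpa array 3, another array of high hybridisation controls, and the labels were kept as given. TCDD 2 dpa arrays 1 and 2 correlated with each other at 0.736. These correlations are across probe sets that share one median scaling, and are given as descriptions. The first principal component of the 6 arrays held 49.5% of their variance, with TCDD 3 dpa arrays 1 and 3 and TCDD 2 dpa array 3 on one side (−20.3, −33.5 and −29.4) and TCDD 3 dpa array 2 and TCDD 2 dpa arrays 1 and 2 on the other (38.7, 22.5 and 22.0).

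**Figure D1:**
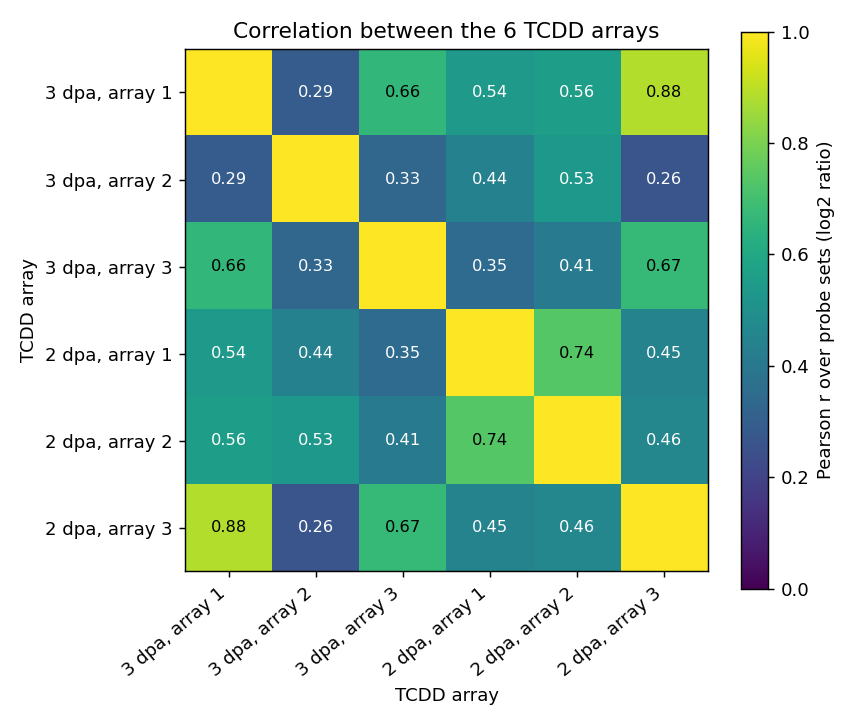
Pearson correlation between each pair of the 6 TCDD arrays over the log2 ratios of 15502 probe sets, with both axes listing the 3 arrays of 3 dpa and then the 3 of 2 dpa and the colour running from 0 to 1. The highest value outside the diagonal, 0.885, joins 3 dpa array 1 with 2 dpa array 3, while 3 dpa array 2 stays at or under 0.533 with every other TCDD array.

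Many of the genes that varied most over the TCDD arrays followed this split. Correlations and principal components give most weight to probe sets of wide range, so this agreement was partly built in and is a description. A range of 4-fold or more over the 6 arrays was seen for 519 probe sets in TCDD fins and 207 in vehicle fins. Of the 519, the days did not overlap in 20 (3.85%), where over all probe sets 3.43% lay higher and 2.12% lower without overlap. In 184 (35.5%) the highest 3 arrays were TCDD 3 dpa arrays 1 and 3 and TCDD 2 dpa array 3, and in 85 (16.4%) those were the lowest 3. A range of 8-fold or more was reached by 141 probe sets in TCDD fins and 29 in vehicle fins, and the days did not overlap in 4 of the 141, to be read beside the same shares of all probe sets. The genes described next were taken from the 25 of widest range, a choice made after the values were seen, so their ranges are descriptions.

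Chaperone genes of the heat shock response were among the widest. The gene hsp70.3, an inducible Hsp70 chaperone with near-identical paralogs that its probe set may also detect, had ratios of 48.6, 0.496 and 40.1 at 3 dpa, against 2.56, 12.1 and 51.5 at 2 dpa. The Hsp90 chaperone gene hsp90aa1.2 read 27.2, 0.49 and 13.9 at 3 dpa, against 1.4, 3.4 and 16 at 2 dpa. In both genes array 2 read lowest at 3 dpa and array 3 highest at 2 dpa, and the days overlapped. The day change was −0.24 for hsp70.3 and 0.43 for hsp90aa1.2, with standard errors of 1.62 and 1.38. Without TCDD 3 dpa array 2 these became 1.92 and 2.20. In vehicle fins hsp70.3 stayed between 0.336 and 1.23.

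The following single genes from those 25 or from the lists were high on TCDD 3 dpa arrays 1 and 3 and TCDD 2 dpa array 3. The hyaluronan receptor gene cd44a had ratios of 23.2, 0.638 and 23.8 at 3 dpa, against 0.665, 0.836 and 31.6 at 2 dpa. For dusp2, a phosphatase that switches off MAP kinases, the ratios were 19.8, 0.981 and 14.8 at 3 dpa, against 1.02, 1.31 and 19.8 at 2 dpa. The metalloreductase gene steap4 read 9.61, 1.38 and 14.1 at 3 dpa, against 0.886, 1.09 and 50.6 at 2 dpa, the arginase gene arg2 18.8, 0.417 and 13.8 at 3 dpa, against 1.78, 1.37 and 19.8 at 2 dpa, and the tight junction gene cldn3d 13.3, 0.507 and 6.84 at 3 dpa, against 0.51, 0.468 and 20 at 2 dpa. In each of these genes 1 array of 2 dpa and 2 arrays of 3 dpa read several times above the other 3. A pair of genes of the monocarboxylate transporter family also did so, slc16a9a at 18.9, 0.508 and 45.8 at 3 dpa, against 0.884, 1.04 and 24.2 at 2 dpa and slc16a3b at 13.2, 0.696 and 7.48 at 3 dpa, against 1.55, 1.19 and 9.46 at 2 dpa. Among the leukocyte markers of wide range, the granule proteoglycan gene srgn read 6.83, 0.312 and 4.69 at 3 dpa, against 0.61, 0.71 and 8.09 at 2 dpa, the phagocyte oxidase subunit gene ncf1 5.51, 0.379 and 3.28 at 3 dpa, against 0.7, 0.857 and 8.67 at 2 dpa and the lysozyme gene lyz 1.92, 0.29 and 6.58 at 3 dpa, against 0.421, 0.864 and 2.43 at 2 dpa, while the chemokine receptor gene cxcr4b was lowest on those 3 arrays.

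Other genes were low where those were high. The hyaluronan link protein gene hapln1a had ratios of 0.17, 0.883 and 0.00831 at 3 dpa, against 1.21, 0.923 and 0.0845 at 2 dpa, and rcn3, a calcium-binding protein of the secretory pathway, had 0.165, 1.05 and 0.057 at 3 dpa, against 0.871, 0.946 and 0.0801 at 2 dpa. In both, TCDD 3 dpa array 2 read with TCDD 2 dpa arrays 1 and 2. In klf9 and fkbp5, which glucocorticoid receptors induce in vertebrates, all 3 arrays of 3 dpa were low together with 1 array of 2 dpa. The transcription factor gene klf9 read 0.0863, 0.242 and 0.154 at 3 dpa, against 1.33, 1.21 and 0.047 at 2 dpa, and the Hsp90 cochaperone gene fkbp5 read 0.135, 0.0531 and 0.0735 at 3 dpa, against 1.21, 0.936 and 0.0867 at 2 dpa. For fkbp5 the change was −2.51 (SE 0.98, 95% interval −4.68 to −0.34), with the days overlapping through TCDD 2 dpa array 3. Without that array the change was −3.72 for fkbp5 and −3.10 for klf9, and limma still called 0 probe sets.

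**Figure D2:**
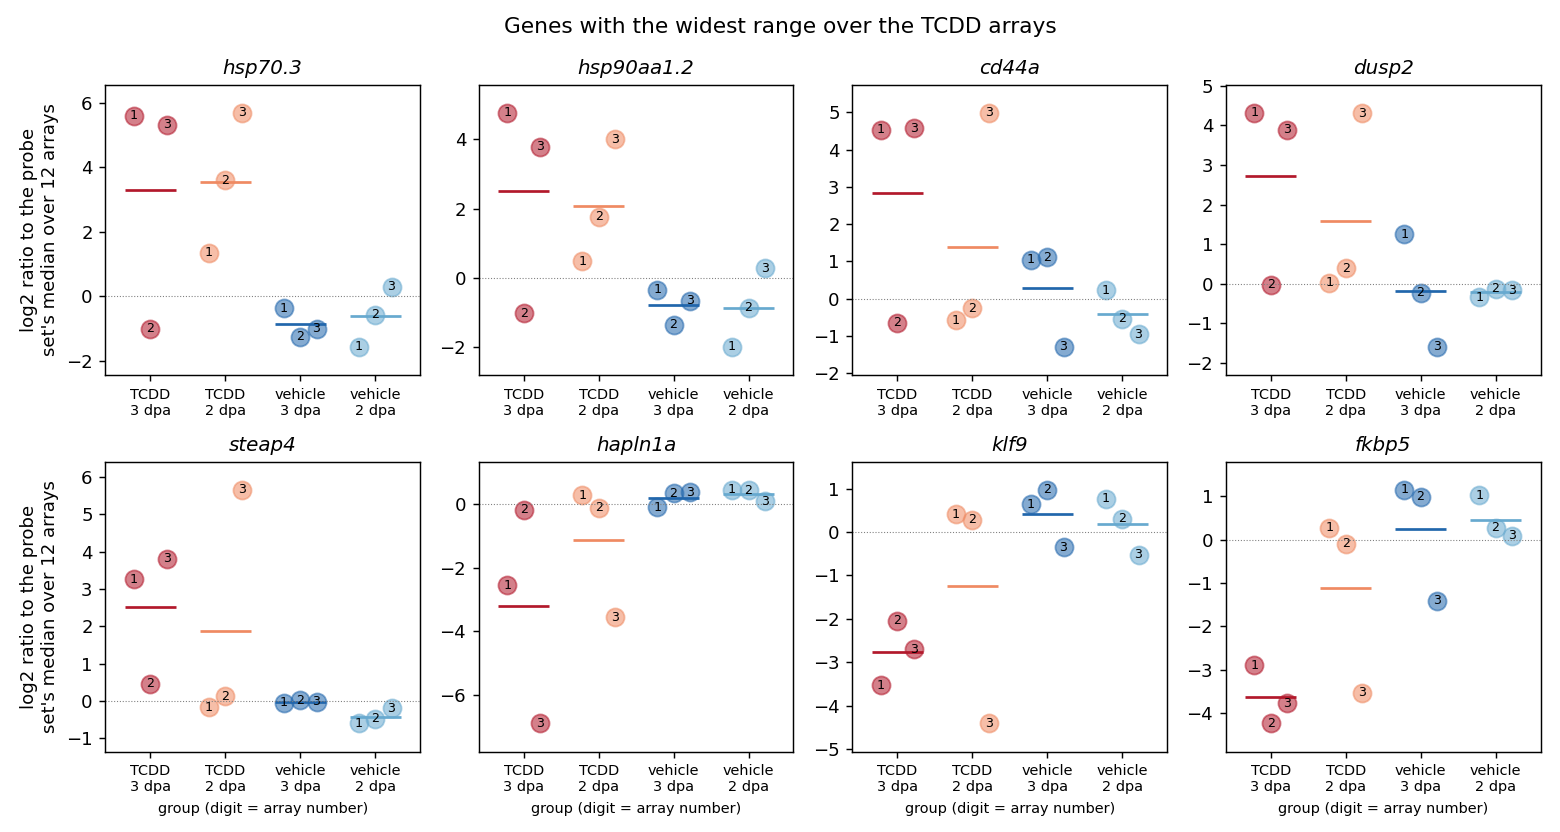
Log2 ratio of 8 genes on every array, as points marked with the array number, with a line at each group mean and the groups TCDD 3 dpa, TCDD 2 dpa, vehicle 3 dpa and vehicle 2 dpa from left to right. For hsp70.3, hsp90aa1.2, cd44a, dusp2 and steap4 the TCDD 3 dpa arrays 1 and 3 and TCDD 2 dpa array 3 lie far above zero, and for hapln1a the same 3 lie below the others.

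By gene list, wide ranges were counted as follows. A 4-fold range over the TCDD arrays was reached by 3.35% of all probe sets. Among the measured genes of each list it was reached by 8 of 40 (20%) of the heat shock and unfolded protein genes, 7 of 33 (21.2%) of the inflammation genes and 5 of 26 (19.2%) of the leukocyte markers. The same held for 7 of 28 (25%) of the cartilage and bone genes, 5 of 35 (14.3%) of the extracellular matrix genes, 11 of 47 (23.4%) of the muscle markers, 6 of 30 (20%) of the circadian clock genes and 2 of 8 (25%) of the fin fold actinotrichia genes. Over the vehicle arrays, where 207 of all probe sets had such a range, it was reached by 5 of the same 33 inflammation genes, 3 of the 26 leukocyte markers, 2 of the 47 muscle markers, 1 of the 28 cartilage and bone genes and 0 of the 40 heat shock and unfolded protein genes. Over the TCDD arrays it was reached by 0 of 56 DNA replication genes, 0 of 69 ribosomal protein genes and 0 of 42 Hox genes. The vehicle arrays gave 9 of the 56 DNA replication genes, 0 of the 69 ribosomal protein genes and 0 of the 42 Hox genes. Of 55 mitosis genes, 1 had such a range over the TCDD arrays and 6 over the vehicle arrays. For the 26 blastema and fin mesenchyme genes these counts were 0 and 2. Of the 8 heat shock genes, 5 (atf3, dnaja1, dnajb1b, hsp90aa1.2 and hspa4a) were highest on TCDD 3 dpa arrays 1 and 3 and TCDD 2 dpa array 3, and so were 5 of the 7 inflammation genes (cebpb, egr1, irf7, irg1l and junba). Of the 5 matrix genes, 4 (hapln1a, loxa, loxl2b and vcanb) were lowest on those arrays. These shares are descriptions with no test. A list gene with several probe sets entered through that of highest mean ratio. On values scaled to a median, this choice favours probe sets with high outlying arrays, and so wide ranges. The gene sox9b, for example, entered through its probe set of wide range. The 3.35% of all probe sets involved no such choice, so a list share above it does not show that the list was wider. The TCDD and vehicle counts of a list used the same probe sets.

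Several muscle and cartilage genes were wide through a single array. The slow myosin gene smyhc1 had ratios of 0.868, 0.931 and 16.6 at 3 dpa, against 1.69, 1.04 and 0.734 at 2 dpa, and atp2a1, the calcium pump of fast muscle, had 0.96, 1.83 and 9.9 at 3 dpa, against 1.9, 0.962 and 0.839 at 2 dpa. The cartilage collagen genes col2a1a and col9a1b read 0.73, 1.05 and 8.29 at 3 dpa, against 0.852, 0.867 and 0.696 at 2 dpa, and 0.994, 2.02 and 6.14 at 3 dpa, against 1.22, 0.919 and 0.872 at 2 dpa. In all 4 genes TCDD 3 dpa array 3 was by far the highest. The median log2 ratio of the 47 muscle markers was −0.29, −0.18 and 0.14 at 3 dpa, against −0.021, −0.22 and −0.30 at 2 dpa, so that array was also the highest for the list as a whole. Whether the pool of that array held more muscle was not tested.

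The 15 genes of largest positive estimate at 3 dpa, taken among those at an unadjusted p under 0.05 whose days did not overlap, had log2 estimates of 0.57 to 1.09. None was called. The largest was ak4, a mitochondrial adenylate kinase gene, with ratios of 1.37, 1.75 and 2.94 at 3 dpa, against 0.669, 0.855 and 1.28 at 2 dpa and a change of 1.09 (SE 0.39, 95% interval 0.21 to 1.97). The muscle glycogen phosphorylase gene pygmb followed with 0.88, and its ratios were 1.13, 1.32 and 3.38 at 3 dpa, against 1.02, 1.01 and 0.771 at 2 dpa. Without TCDD 3 dpa array 3, its highest array, the change of pygmb was 0.39.

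More even were foxb1a, a forkhead transcription factor gene, and nde1, which acts at the centrosome and on dynein. The ratios of foxb1a were 1.79, 1.67 and 1.41 at 3 dpa, against 0.911, 0.93 and 1.32 at 2 dpa (log2 change 0.64, SE 0.15). For nde1 they were 1.63, 1.49 and 1.67 at 3 dpa, against 0.957, 1.08 and 1.14 at 2 dpa (log2 change 0.59, SE 0.12). The lipoprotein lipase gene lpla was less even, with 1.7, 1.04 and 1.71 at 3 dpa, against 0.977, 1.04 and 0.84 at 2 dpa (log2 change 0.61, SE 0.18). Its change was 0.85 without TCDD 3 dpa array 2 and 0.49 without TCDD 3 dpa array 3. The lowest unadjusted p of the higher genes belonged to myoz1b, a protein of the muscle Z-disc, with 1.39, 1.86 and 1.7 at 3 dpa, against 1.05, 1.09 and 1.16 at 2 dpa (log2 change 0.58, SE 0.11), and to the homeobox gene hoxb5a, with 1.06, 1.21 and 1.42 at 3 dpa, against 0.818, 0.857 and 0.783 at 2 dpa (log2 change 0.58, SE 0.11). Their 3 dpa arrays all lay above the 2 dpa arrays, and leaving out any 1 TCDD array left the change of myoz1b between 0.49 and 0.70 and that of hoxb5a between 0.47 and 0.68. The remaining genes of the 15 were tpd52l1 (0.75), ccdc106b (0.74), the N-glycan synthesis gene mpdu1a (0.72), the calcium-binding protein gene chp2 (0.71), the myelin protein gene pmp22b (0.67), the T cell co-receptor gene cd28 (0.62), the lens crystallin gene crygm2f (0.57) and ccdc117 (0.57). Without TCDD 3 dpa array 3 the change of ccdc106b was 0.37 and that of chp2 0.47.

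The 15 genes of largest negative estimate, chosen in the same way, reached −1.88, and none was called. For all 15 TCDD 3 dpa array 3 was the lowest of the 6 TCDD arrays. The matrix gene postnb, which encodes periostin, had ratios of 0.491, 0.203 and 0.109 at 3 dpa, against 0.745, 0.757 and 0.508 at 2 dpa and a change of −1.57 (SE 0.43, 95% interval −2.53 to −0.61). Without TCDD 3 dpa array 3 it was −1.06, and under quantile normalization −1.05. In vehicle fins postnb read 1.29, 1.64 and 1.24 at 3 dpa, against 2.16, 1.73 and 2.04 at 2 dpa, above every TCDD array. The growth-linked gene pa2g4a, which encodes an ErbB3-binding protein, had ratios of 0.703, 0.377 and 0.264 at 3 dpa, against 1.08, 1.06 and 0.905 at 2 dpa (log2 change −1.29, SE 0.32), and the sodium pump subunit gene atp1a1a.2 had 0.413, 0.429 and 0.393 at 3 dpa, against 0.532, 1.23 and 1.13 at 2 dpa (log2 change −1.13, SE 0.33). These 2 genes were also low on 3 dpa arrays 1 and 2.

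Leaving out array 3 moved the other estimates to different extents. The ratios of tcf12, an E protein transcription factor gene, were 0.985, 0.604 and 0.0591 at 3 dpa, against 1.26, 1.31 and 1.06 at 2 dpa, and its change of −1.88 became −0.64 without that array. The gene ctnnb1, which encodes beta-catenin, the effector of canonical Wnt signalling, read 0.997, 0.413 and 0.374 at 3 dpa, against 1.15, 1.05 and 1.8 at 2 dpa, with an estimate of −1.27 (SE 0.42, 95% interval −2.20 to −0.35) and of −1.01 without array 3. For cdh2, which encodes N-cadherin, the estimate was −1.08 with all arrays and −0.54 without array 3, and for the growth factor gene bmp4 −1.06 and −0.49. The chromatin reader gene brd2a gave −1.41 and −0.91, the translation factor gene eif5a2 −1.18 and −0.58, and the copper transporter gene slc31a1 −1.16 and −0.57. Vehicle 3 dpa array 3 was likewise the lowest vehicle array in tcf12, ctnnb1, cdh2 and bmp4, at 0.495, 0.383, 0.607 and 0.442. Also in the 15 were znf638 (−0.97, and −0.52 without array 3), the protein translocation gene tram1 (−0.95 and −0.47), the dynein regulator gene pafah1b1b (−0.93 and −0.57), the adaptor gene grb2b (−0.81 and −0.57) and ergic2 of ER to Golgi transport (−0.80 and −0.53).

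**Figure D3:**
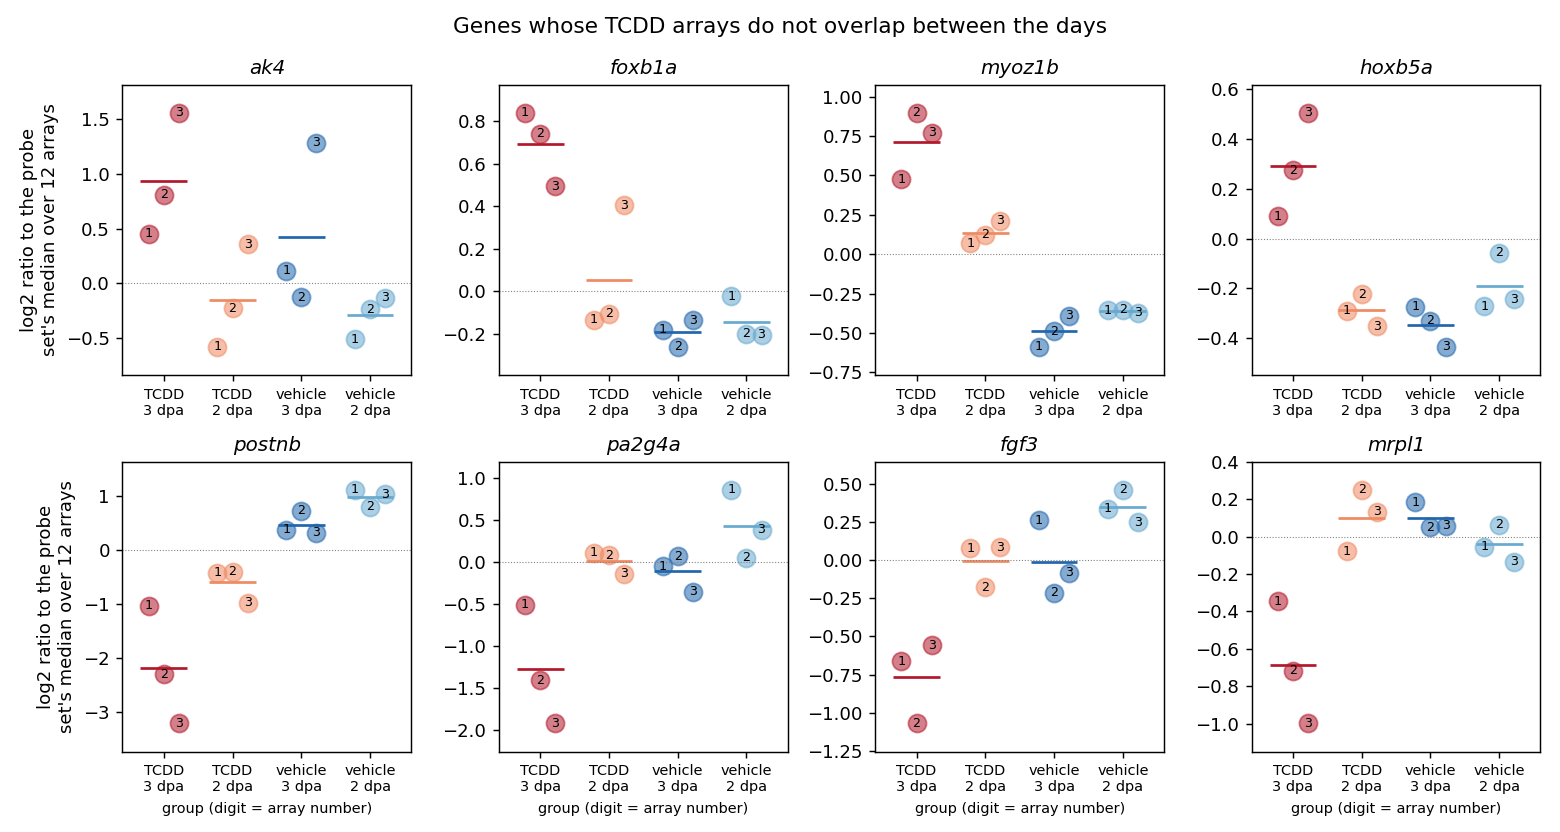
Log2 ratio of 8 genes on every array, as points marked with the array number, with a line at each group mean and TCDD 3 dpa, TCDD 2 dpa, vehicle 3 dpa and vehicle 2 dpa from left to right. In the upper row every TCDD 3 dpa array lies above every TCDD 2 dpa array, and in the lower row every one lies below, while limma called none of the 8.

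The AHR target genes cyp1a, cyp1c1 and tiparp overlapped between the days in TCDD fins. The change of cyp1a was 0.00 with a standard error of 1.09, and its 6 TCDD arrays ran from 1.98 to 4.30. The spread in that fit is pooled over all 4 groups, and the vehicle arrays ran from 0.000773 to 0.0241. The cyp1c1 probe set called for TCDD against vehicle on both days had ratios of 1.7, 3.45 and 2.19 at 3 dpa, against 2.35, 2.23 and 1.83 at 2 dpa and a change of 0.14 (SE 0.82, 95% interval −1.69 to 1.97). For tiparp, which encodes an AHR-induced poly-ADP-ribose polymerase, they were 1.71, 1.91 and 1.41 at 3 dpa, against 1.64, 1.13 and 1.95 at 2 dpa and the change 0.12 (SE 0.19, 95% interval −0.31 to 0.54). TCDD 3 dpa array 2 was the highest array for cyp1a and cyp1c1, and without it their changes were −0.36 and −0.14. Under quantile normalization the estimates were −0.16 for cyp1a, −0.12 for cyp1c1 and −0.078 for tiparp, so none of these probe sets had a settled direction over the days. Another cyp1c1 probe set had an estimate of 0.21, which kept its sign over the settings (0.042 to 0.34) and was never called. A further cyp1c1 probe set, at 0.087, ran from −0.031 to 0.15.

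The Wnt genes rspo1 and fzd7a were higher in TCDD than in vehicle fins on both days, by the call at an adjusted p under 0.05. The secreted enhancer had ratios of 3.97, 4.14 and 6.28 at 3 dpa, against 1.58, 2.0 and 4.48 at 2 dpa and a change of 0.96 (SE 0.36, 95% interval 0.16 to 1.75), with the days overlapping through TCDD 2 dpa array 3. Leaving out that array gave 1.40, leaving out TCDD 2 dpa array 1 gave 0.65, and quantile normalization gave 0.53, none of them called. In vehicle fins rspo1 read 0.274, 0.236 and 0.263 at 3 dpa, against 0.295, 0.244 and 0.423 at 2 dpa, and the difference between the TCDD and the vehicle day change was 1.24, SE 0.50. The Wnt receptor gene fzd7a had ratios of 1.56, 1.72 and 1.68 at 3 dpa, against 1.44, 1.43 and 1.72 at 2 dpa and a change of 0.12 (SE 0.13, 95% interval −0.18 to 0.41), which was −0.16 under quantile normalization.

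Among genes called lower in TCDD fins on both days were mb and kera. The myoglobin gene mb had ratios of 0.284, 0.378 and 0.279 at 3 dpa, against 0.405, 0.38 and 0.202 at 2 dpa in TCDD fins, and 6.49, 3.74 and 1.6 at 3 dpa, against 3.34, 2.95 and 6.37 at 2 dpa in vehicle fins. The corneal and skeletal proteoglycan gene kera had 0.23, 0.173 and 0.257 at 3 dpa, against 0.309, 0.405 and 0.225 at 2 dpa in TCDD fins, with a change of −0.49 (SE 0.21, 95% interval −0.95 to −0.025). Quantile normalization gave −0.072 for kera. For sox9b, a cartilage and fin transcription factor gene known in zebrafish as an AHR-repressed gene, 1 of 2 probe sets read 0.43, 0.0541 and 0.57 at 3 dpa, against 0.122, 0.146 and 0.298 at 2 dpa in TCDD fins, and 3.23, 2.78 and 1.43 at 3 dpa, against 2.73, 2.68 and 3.33 at 2 dpa in vehicle fins. It was not among the genes called on both days. Its day change was 0.44 with a standard error of 0.76, and ranged from −0.19 without TCDD 3 dpa array 3 to 1.5 without array 2, with 2.72 under quantile normalization. The other sox9b probe set read 0.966 to 1.13 on all 6 TCDD arrays.

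In all, 18 probe sets (0.116%) were called for TCDD against vehicle on both days, and they were taken up here because of that call. Their TCDD day changes ran from −0.49 (kera) to 0.96 (rspo1). Others of them were the prostaglandin D synthase gene ptgdsb.2 (log2 change 0.43, SE 0.33), the GTP cyclohydrolase regulator gene gchfr (log2 change 0.30, SE 0.18), the electron carrier gene cyb5a (log2 change −0.43, SE 0.26) and the oxygen-binding cytoglobin gene cygb1 (log2 change −0.22, SE 0.32). The ratios of cyb5a were 2.19, 2.38 and 1.56 at 3 dpa, against 3.11, 2.58 and 2.45 at 2 dpa, so its days did not overlap, and its estimate was −0.24 without TCDD 3 dpa array 3, where that of ptgdsb.2 was 0.13. The estimate was −0.18 for the sulfotransferase gene sult6b1, 0.18 for the serotonin synthesis gene tph2 and −0.32 for the complement gene c6.2. The adhesion gene sdk2b had the narrowest interval of the 18, 0.29 (SE 0.10, 95% interval 0.063 to 0.52), and read 1.42, 1.57 and 1.8 at 3 dpa, against 1.2, 1.38 and 1.31 at 2 dpa. Quantile normalization made the estimates of sdk2b (0.022) and gchfr (0.011) smaller, and those of cyb5a (−0.77) and sult6b1 (−0.50) larger in size. The annotation assigns mpx, a neutrophil peroxidase gene, to a probe set from the same sequence cluster as that for cyp1a, and it read 1.99, 3.4 and 3.56 at 3 dpa, against 1.88, 3.25 and 1.72 at 2 dpa in TCDD fins.

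**Figure D4:**
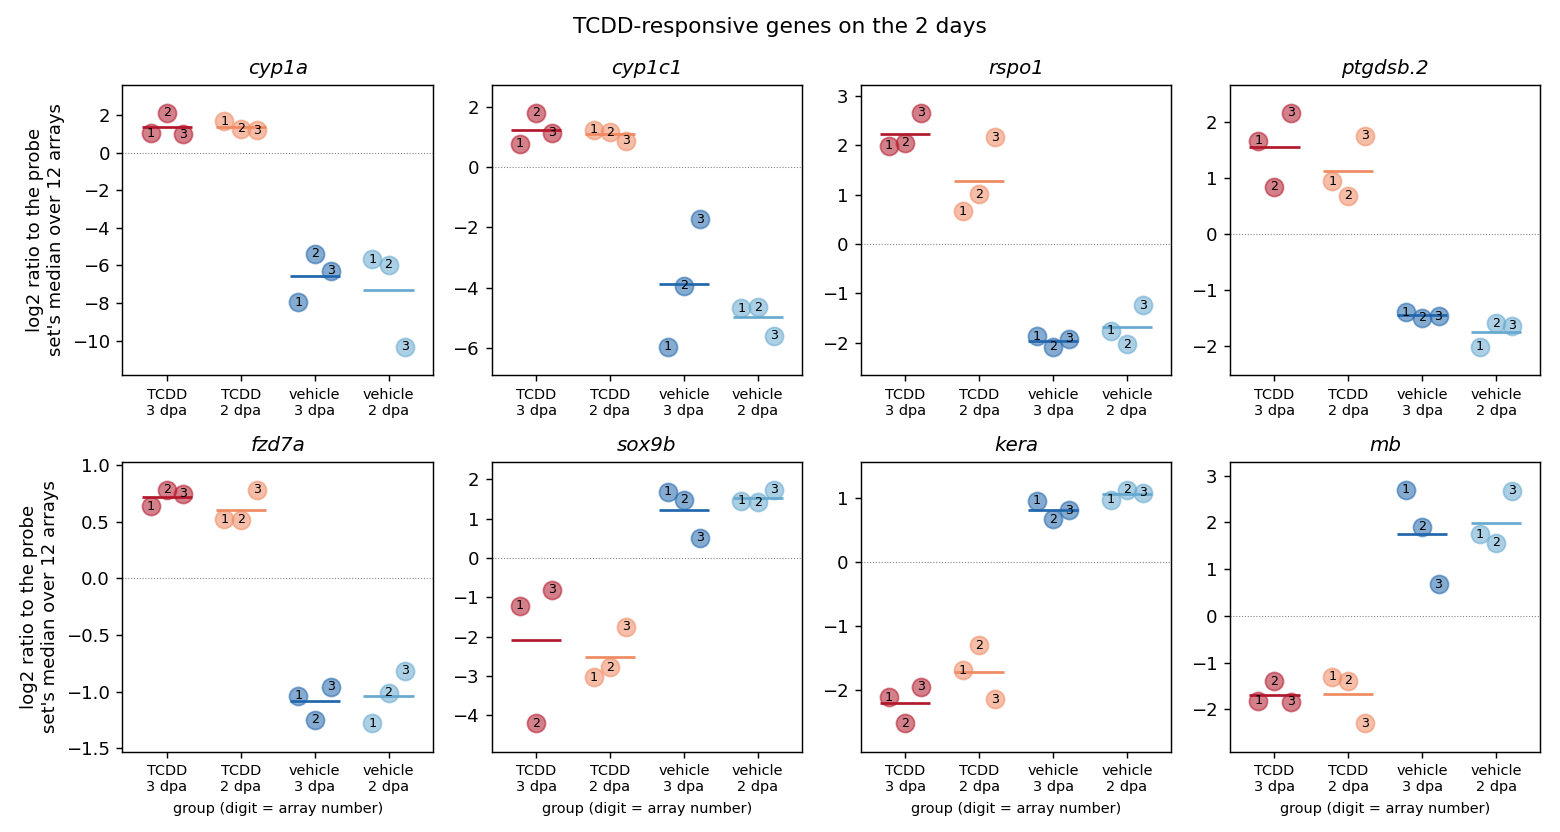
Log2 ratio of 8 AHR-linked or TCDD-associated genes on every array, as points marked with the array number, with a line at each group mean and TCDD 3 dpa, TCDD 2 dpa, vehicle 3 dpa and vehicle 2 dpa from left to right. TCDD and vehicle arrays lie apart for every gene on both days, and the 2 TCDD groups overlap in all 8.

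The AHR response list as a whole, 16 measured genes, had a median change of 0.089, against 0.022 over all probe sets, and 11 of 16 members read higher and 5 lower. It holds sox9b, known as AHR-repressed, beside induced genes such as rspo1, so its median and counts mix both kinds. Over all 15502 probe sets, 8815 read higher and 6687 lower in TCDD fins, and 7872 and 7630 in vehicle fins. Each list's count of higher and lower members is to be read beside these. Of the AHR pathway components, 7 of 11 members read higher and 4 lower at 3 dpa, with a median of 0.035. At an unadjusted p under 0.05 rspo1 was the only member of either list. In no list described here was a member called. Of the 35 list medians, 28 changed sign under at least 1 alternative setting. The 7 that kept their sign were those of Wnt signalling, FGF signalling, DNA replication, heat shock, notochord, ribosome biogenesis and oxidative phosphorylation.

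Among the signalling lists of the regenerate, no member was called. In the Wnt list 11 of 27 members read higher and 16 lower, with a median of −0.032, and without TCDD 3 dpa array 2 the median was −0.25. The Wnt feedback inhibitor gene axin2 had ratios of 0.727, 0.748 and 0.395 at 3 dpa, against 1.0, 0.904 and 0.895 at 2 dpa (log2 change −0.64, SE 0.22). The receptor gene fzd9b (log2 change −0.41, SE 0.18) and the ligand gene wnt5b (log2 change −1.04, SE 0.53) also read lower. In the FGF list 7 of 18 members read higher and 11 lower, with a median of −0.12. Its ligand gene fgf3 read 0.632, 0.476 and 0.68 at 3 dpa, against 1.05, 0.885 and 1.06 at 2 dpa (log2 change −0.76, SE 0.16), with no overlap between the days. The receptor gene fgfr2 read 0.663, 0.558 and 0.28 at 3 dpa, against 0.94, 1.06 and 0.589 at 2 dpa (log2 change −0.83, SE 0.36), the inhibitor gene spry4 had a change of −0.83, and the receptor gene fgfr4 one of 0.51. Except for fgf3, these estimates moved by more than 1.5 times without TCDD 3 dpa array 3, when they were −0.34 for axin2, −0.26 for fzd9b, −0.35 for wnt5b, −0.46 for fgfr2, −0.33 for spry4 and 0.21 for fgfr4.

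In the BMP and TGF-beta list 16 of 29 members read higher and 13 lower, with a median of 0.022. At an unadjusted p under 0.05 there were 0 higher and 3 lower there, of 29 measured, against 2.36% higher and 1.64% lower over all probe sets. Beside bmp4 these were tgfbi, a TGF-beta-induced matrix gene, with ratios of 0.727, 0.537 and 0.474 at 3 dpa, against 0.86, 0.934 and 0.909 at 2 dpa (log2 change −0.66, SE 0.22), and the ligand gene bmp7a, with 0.761, 0.785 and 0.734 at 3 dpa, against 0.915, 0.856 and 0.888 at 2 dpa (log2 change −0.22, SE 0.074). The BMP antagonist gene nog1 read 0.788, 0.668 and 0.739 at 3 dpa, against 0.574, 0.628 and 0.568 at 2 dpa, with every 3 dpa array above the 2 dpa arrays and a change of 0.31. Hedgehog genes had a median of 0.0043, and the ligand gene shha read 0.968, 1.74 and 1.28 at 3 dpa, against 1.02, 0.946 and 0.865 at 2 dpa (log2 change 0.46, SE 0.18). The pathway factor gene gli2a (0.43) and the transducer gene smo (0.26) also had positive estimates, and without TCDD 3 dpa array 2 those of shha and gli2a were 0.24 and 0.27. Retinoic acid genes had a median of 0.014, with 9 of 17 members higher and 8 lower. The synthesis gene rdh10b was at 0.30 and the degradation gene cyp26a1 at 0.25, or 0.084 without TCDD 2 dpa array 1. The receptor gene rarab (−0.16) and the transport gene rbp4 (−0.25) had negative estimates. Notch genes had a median of 0.062, with the ligand gene jag1a at 1.75, 0.748 and 3.4 at 3 dpa, against 0.56, 0.665 and 1.95 at 2 dpa (log2 change 0.87, SE 0.54). Its estimate was 0.35 without TCDD 3 dpa array 3 and 1.43 without TCDD 2 dpa array 3.

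Tissue lists of the fin gave the following, to be read beside 8815 of all 15502 probe sets higher and 6687 lower. Of the blastema and fin mesenchyme genes, 13 of 26 members read higher and 13 lower at 3 dpa, with a median of −0.011. The joint and boundary factor gene evx1 (log2 change 0.50, SE 0.27) and the Hox gene hoxd11a (log2 change 0.36, SE 0.22) had positive estimates, and the mesenchymal factor gene twist3 a negative one (log2 change −0.46, SE 0.31). Without 1 array, the smallest estimates were 0.33 for evx1 (TCDD 2 dpa array 2), 0.068 for hoxd11a (TCDD 3 dpa array 3) and −0.24 for twist3 (TCDD 2 dpa array 1). Of the epidermal genes 35 of 47 members read higher and 12 lower, with a median of 0.093 (−0.0082 without TCDD 2 dpa array 2), and 0 members were at an unadjusted p under 0.05. Their list medians per array were 0.31, −0.028 and 0.25 at 3 dpa, against 0.021, −0.15 and 0.44 at 2 dpa, so TCDD 2 dpa array 3 exceeded every 3 dpa array. The actinotrichia genes and1 and and2, which build the fin fold fibrils, had ratios of 0.924, 0.998 and 0.817 at 3 dpa, against 1.13, 0.682 and 0.921 at 2 dpa, and 0.974, 1.0 and 0.808 at 3 dpa, against 0.999, 0.674 and 0.94 at 2 dpa. Their changes were 0.028 and 0.10.

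Among matrix lists, the median was −0.0042 for cartilage and bone and −0.10 for extracellular matrix, where 14 of 35 members read higher and 21 lower. Without TCDD 3 dpa array 3 the matrix median was 0.020. The laminin gene lamc1 read 1.13, 0.979 and 1.69 at 3 dpa, against 0.767, 0.79 and 0.996 at 2 dpa (log2 change 0.54, SE 0.18). The cross-linking enzyme gene loxl2b had ratios of 0.244, 0.418 and 0.108 at 3 dpa, against 0.804, 0.781 and 0.163 at 2 dpa (log2 change −1.07, SE 0.61), lowest on TCDD 3 dpa arrays 1 and 3 and TCDD 2 dpa array 3. The matrix gene fbln1 read 0.471, 0.765 and 0.043 at 3 dpa, against 1.14, 1.01 and 0.409 at 2 dpa and had an estimate of −1.64. When TCDD 3 dpa array 3 was left out the estimates were 0.31 for lamc1, −0.55 for loxl2b and −0.37 for fbln1. The thrombospondin gene thbs1b had an estimate of 0.42 and the metalloproteinase gene mmp14a one of 0.21.

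No proliferation gene was called between the days in TCDD fins. Of 56 DNA replication genes, 37 read higher and 19 lower, with a median of 0.098 and 0 at an unadjusted p under 0.05. Their list medians were −0.13, −0.36 and −0.14 at 3 dpa, against −0.36, −0.42 and −0.12 at 2 dpa, all below the vehicle arrays, which ran from 0.029 to 1.2. Of 55 mitosis genes, 24 read higher and 31 lower, with a median of −0.0090. The proliferation marker gene mki67 had ratios of 0.722, 0.999 and 0.941 at 3 dpa, against 1.14, 0.969 and 1.05 at 2 dpa (log2 change −0.26, SE 0.17). The origin recognition gene orc3 (−0.36), the nucleotide enzyme gene dut (−0.39) and the mitotic kinase gene aurka (−0.44) had negative estimates, and the thymidine kinase gene tk1 a positive one (0.30). The p53 and apoptosis genes had a median of 0.025, with the p53 ligase gene mdm2 at 0.991, 0.813 and 0.605 at 3 dpa, against 1.26, 1.17 and 0.9 at 2 dpa (log2 change −0.48, SE 0.20, and −0.29 without TCDD 3 dpa array 3).

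Stress and immune lists were as follows. The heat shock and unfolded protein list had a median of −0.13 (−0.41 without TCDD 3 dpa array 1), with 1 higher and 2 lower at an unadjusted p under 0.05, of 40 measured, to be read beside 2.36% and 1.64% of all probe sets. The constitutive chaperone gene hspa8b read 1.46, 1.14 and 1.58 at 3 dpa, against 1.01, 1.11 and 0.973 at 2 dpa (log2 change 0.42, SE 0.14). Among the negative estimates were those of the ER chaperone gene hsp90b1, which read 1.08, 0.498 and 0.227 at 3 dpa, against 1.0, 0.998 and 1.23 at 2 dpa (log2 change −1.11, SE 0.43), and of the disulfide isomerase gene pdia3, at 0.621, 0.676 and 0.469 at 3 dpa, against 1.03, 0.994 and 0.585 at 2 dpa (log2 change −0.54, SE 0.23). Leaving out TCDD 3 dpa array 3 changed the estimate of hsp90b1 to −0.54. In the oxidative stress list, median −0.016, the NRF2 inhibitor gene keap1a read 1.06, 1.0 and 0.63 at 3 dpa, against 1.54, 1.1 and 1.09 at 2 dpa (log2 change −0.49, SE 0.21), and nfe2l2a, which encodes NRF2 itself, 1.04, 1.77 and 2.42 at 3 dpa, against 0.996, 1.12 and 1.0 at 2 dpa (log2 change 0.66, SE 0.30). Omitting TCDD 3 dpa array 3 gave estimates of −0.25 for keap1a and 0.38 for nfe2l2a. The glutathione peroxidase gene gpx1a had an estimate of −0.33.

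Inflammation genes had a median of 0.099 (−0.12 without TCDD 3 dpa array 1), and 20 of 33 members read higher and 13 lower. Their list medians per array were 0.37, −0.21 and 0.095 at 3 dpa, against −0.031, −0.10 and 0.64 at 2 dpa, highest on TCDD 2 dpa array 3. The acute phase gene saa read 1.24, 1.17 and 1.97 at 3 dpa, against 1.15, 1.0 and 0.958 at 2 dpa (log2 change 0.46, SE 0.19), and the cytokine signal gene stat3 1.19, 0.907 and 0.173 at 3 dpa, against 1.25, 0.994 and 1.38 at 2 dpa (log2 change −1.07, SE 0.56). Both leaned on TCDD 3 dpa array 3, without which the estimates were 0.22 for saa and −0.21 for stat3. The leukocyte markers had a median of 0.080, and coro1a, an actin-binding gene of leukocytes, read 1.03, 1.33 and 1.21 at 3 dpa, against 0.742, 0.974 and 0.97 at 2 dpa (log2 change 0.41, SE 0.18).

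Markers of other cell types that a fin pool could hold gave medians of 0.21 for muscle, 0.12 for notochord, 0.034 for neural and eye tissue, 0.036 for endothelium, −0.031 for red blood cells, −0.034 for pigment cells and −0.0067 for liver, gut and yolk. In the muscle list 39 of 47 members read higher and 8 lower. Without TCDD 3 dpa array 3 its median was −0.0058, so that direction rested on that array. Of 13 notochord genes, 10 read higher and 3 lower, and 3 were higher at an unadjusted p under 0.05, a bar reached on the higher side by 2.36% of all probe sets. They were lamc1, shha and the matricellular gene ccn2a. The ratios of ccn2a were 2.35, 1.72 and 3.32 at 3 dpa, against 0.836, 0.939 and 2.31 at 2 dpa (log2 change 0.96, SE 0.42). For all 3 genes the days overlapped. Both lamc1 and shha were described above with the matrix and Hedgehog lists, so they are not particular to notochord. The estimate of lamc1 was 0.31 without TCDD 3 dpa array 3, and that of shha 0.24 without array 2 of that day. In the neural and eye list 24 of 42 members read higher and 18 lower, beside 8815 and 6687 of all 15502 probe sets. At an unadjusted p under 0.05 there were 1 higher and 1 lower, against 2.36% and 1.64% of all probe sets. The synaptic gene cplx2a read 0.706, 1.4 and 1.33 at 3 dpa, against 0.724, 0.685 and 0.677 at 2 dpa (log2 change 0.66, SE 0.23). The neural genes otx2b (−0.33) and fabp7a (−0.29) had negative estimates. Of 20 pigment cell genes, 7 read higher and 13 lower. The pigment and glial factor gene sox10 read 0.972, 1.03 and 1.13 at 3 dpa, against 0.831, 0.817 and 0.869 at 2 dpa (log2 change 0.31, SE 0.14). The flow-responsive endothelial gene klf2a had an estimate of −0.91 and klf2b one of 0.59, and without TCDD 2 dpa array 2 that of klf2a was −0.46. The globin gene hbae3 read 1.24, 0.631 and 2.02 at 3 dpa, against 1.58, 4.05 and 2.1 at 2 dpa.

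Oxidative phosphorylation was the most one-sided of the 35 lists. Of 74 oxidative phosphorylation genes, 10 read higher and 64 lower at 3 dpa, with a median of −0.19, and 0 were called. In vehicle fins the median was −0.22, with 5 higher and 69 lower, and the list median was −0.46 on vehicle 3 dpa array 3, against 0.0995 to 0.18 on the other vehicle arrays. The list medians in TCDD fins were −0.12, −0.42 and −0.20 at 3 dpa, against 0.075, −0.097 and −0.27 at 2 dpa, and without TCDD 2 dpa array 1 the median change was −0.088. The complex I genes ndufa8 (0.886, 0.844 and 0.845 at 3 dpa, against 1.05, 0.947 and 1.09 at 2 dpa, log2 change −0.26, SE 0.11), ndufc2 (−0.40) and ndufa1 (−0.24) read lower. The cytochrome oxidase isoform gene cox4i2, which hypoxia induces in mammals, had the opposite sign, at 1.9, 0.899 and 2.39 at 3 dpa, against 0.535, 0.617 and 1.91 at 2 dpa (log2 change 0.90, SE 0.58, and 0.56 without TCDD 2 dpa array 1).

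Among genes of protein synthesis, ribosomal protein genes had a median of −0.022. Of the ribosome biogenesis genes 17 of 64 members read higher and 47 lower, with a median of −0.099 in TCDD fins and 0.0033 in vehicle fins. The nucleolar gene pes read 0.985, 0.707 and 0.425 at 3 dpa, against 1.11, 1.15 and 0.918 at 2 dpa (log2 change −0.66, SE 0.25, and −0.34 without TCDD 3 dpa array 3), and the growth regulator gene mycn 0.736, 0.514 and 0.447 at 3 dpa, against 1.38, 1.19 and 0.553 at 2 dpa (log2 change −0.81, SE 0.40). In the cholesterol synthesis list 7 of 17 members read higher and 10 lower, with a median of −0.050. The acetyl-CoA carboxylase gene acaca read 1.13, 1.28 and 1.28 at 3 dpa, against 0.947, 0.982 and 1.02 at 2 dpa (log2 change 0.32, SE 0.10). The sterol carrier gene stard4 had an estimate of 0.28. Estimates of the sterol synthesis genes cyp51 (−0.53) and mvk (−0.25) were negative. Glycolysis genes had a median of 0.048, and the aldolase gene aldoca read 0.989, 0.914 and 1.03 at 3 dpa, against 0.77, 0.821 and 0.889 at 2 dpa (log2 change 0.24, SE 0.085). Clock genes had a median of −0.15, and of 0.013 without TCDD 3 dpa array 2. The light-responsive genes per2 and cry5 read 4.51, 0.259 and 2.65 at 3 dpa, against 6.83, 2.52 and 1.58 at 2 dpa, and 7.69, 0.448 and 3.28 at 3 dpa, against 9.14, 1.67 and 1.37 at 2 dpa, with wide gaps within each day.

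Hox genes held 4 of 42 members at an unadjusted p under 0.05 on the higher side, against 2.36% of all probe sets. By share, notochord (3 of 13) and cholesterol synthesis (2 of 17) held more. In the cholesterol list they were acaca and the sterol carrier gene stard4, while the sterol synthesis genes cyp51 (−0.53) and mvk (−0.25) had negative estimates. Beside hoxb5a the 4 Hox genes included hoxd4a, with 0.991, 1.69 and 1.08 at 3 dpa, against 0.927, 0.968 and 0.638 at 2 dpa (log2 change 0.55, SE 0.21), and hoxb9a, with 1.24, 1.22 and 2.1 at 3 dpa, against 0.941, 1.0 and 1.26 at 2 dpa (log2 change 0.47, SE 0.19). The gene hoxc9a had the opposite sign (log2 change −0.48, SE 0.20). Omission of TCDD 3 dpa array 3 gave 0.22 for hoxb9a and −0.25 for hoxc9a, and without array 2 of that day hoxd4a had 0.32. The median of the Hox list was 0.045.

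**Figure D5:**
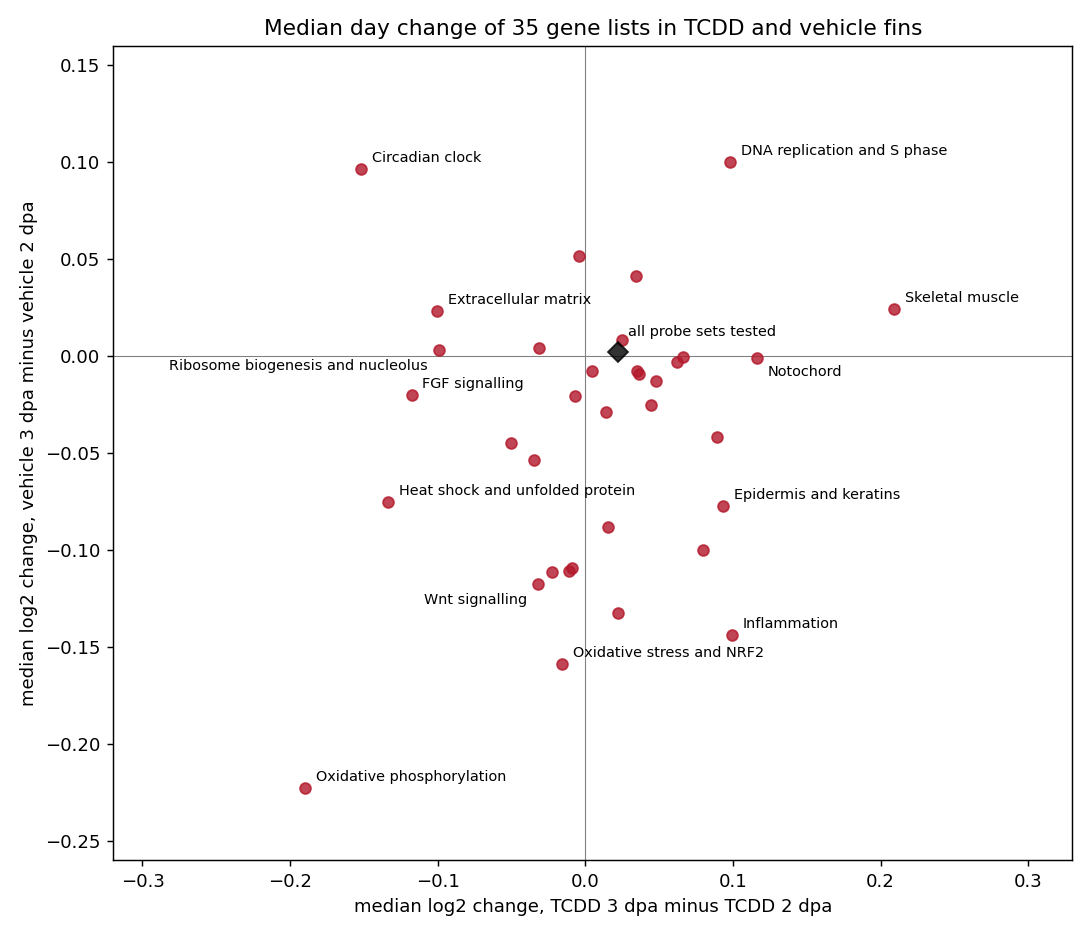
Median log2 change from 2 to 3 dpa of 35 gene lists, with TCDD fins on the horizontal axis and vehicle fins on the vertical axis, 1 point per list and a black diamond for all probe sets. Oxidative phosphorylation lies lowest on both axes (−0.19 and −0.22), while skeletal muscle lies highest in TCDD fins (0.21) and near zero in vehicle fins (0.024).

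In vehicle fins, too, limma called 0 probe sets (0%) between the days. At an unadjusted p under 0.05 there were 319 higher (2.06%) and 259 lower (1.67%), and the days did not overlap in 908 (5.86%) and 812 (5.24%). All vehicle 3 dpa arrays and no vehicle 2 dpa array had high hybridisation controls, so that level and the day cannot be told apart in vehicle fins. The TCDD and vehicle day changes, which share no array, correlated at r = 0.370 and rho = 0.359 over 15502 probe sets, which are not independent. Of the 207 probe sets higher in TCDD fins at an unadjusted p under 0.05 without overlap, 159 (76.8%) had a positive vehicle change, against 50.8% of all probe sets. Of the 145 lower ones, 119 (82.1%) had a negative vehicle change, against 49.2% of all. At an unadjusted p under 0.05 in vehicle fins as well were 32 of the 207 and 15 of the 145. TCDD 3 dpa array 2 had high hybridisation controls too, and it correlated with vehicle 3 dpa array 3 at 0.574. The part of that array in the agreement between the 2 day changes was not tested.

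The day change was not shown to differ between TCDD and vehicle fins for any probe set. The test of the difference called 0 (0%), with 122 higher (0.787%) and 104 lower (0.671%) in TCDD fins at an unadjusted p under 0.05. On the higher side the lowest p were those of hoxb5a (0.73, SE 0.16), myoz1b (0.71, SE 0.16) and daxx, a chromatin and apoptosis adaptor gene (0.78, SE 0.18). For daxx TCDD fins read 0.92, 0.905 and 1.15 at 3 dpa, against 0.935, 0.822 and 0.948 at 2 dpa, and vehicle fins 0.918, 1.07 and 1.05 at 3 dpa, against 1.4, 1.72 and 1.64 at 2 dpa, where the days did not overlap. The annexin gene anxa1d read 1.21, 1.44 and 1.77 at 3 dpa, against 0.837, 1.21 and 1.52 at 2 dpa in TCDD fins and 0.594, 0.408 and 0.397 at 3 dpa, against 0.954, 1.05 and 0.709 at 2 dpa in vehicle fins, a difference of 1.29, SE 0.36. Also in this set were the glycogen kinase subunit gene phkg2 (0.0018 in TCDD fins, −0.68 in vehicle fins) and the coenzyme A synthesis gene coasy (−0.047 in TCDD fins, −0.64 in vehicle fins).

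On the lower side were mrpl1, a mitochondrial ribosome gene, and cad, which encodes the first enzymes of pyrimidine synthesis. In TCDD fins mrpl1 read 0.788, 0.609 and 0.5 at 3 dpa, against 0.948, 1.19 and 1.1 at 2 dpa (log2 change −0.79, SE 0.15), and in vehicle fins 1.14, 1.04 and 1.04 at 3 dpa, against 0.964, 1.05 and 0.911 at 2 dpa, a difference of −0.93, SE 0.22. In TCDD fins cad read 0.922, 0.869 and 0.918 at 3 dpa, against 0.911, 1.02 and 0.971 at 2 dpa (−0.097), and in vehicle fins 1.83, 1.34 and 2.04 at 3 dpa, against 1.03, 1.15 and 0.983 at 2 dpa (0.70), a difference of −0.80, SE 0.20. The fatty acid activation gene acsl1a read 0.847, 0.983 and 0.768 at 3 dpa, against 1.23, 1.24 and 1.09 at 2 dpa in TCDD fins and 0.987, 1.08 and 1.27 at 3 dpa, against 0.989, 0.941 and 1.01 at 2 dpa in vehicle fins, a difference of −0.63, SE 0.17. The Polycomb-associated gene rybpb (−0.55, SE 0.15) and the scaffold gene nherf1a (−0.46, SE 0.13) had differences of the same sign.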

How the data were processed

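RNA (100 ng) from pools of 150 regenerating larval fins was labelled by the Two-Cycle protocol and hybridised to Affymetrix zebrafish arrays, per the labels' protocols. The submitters' processing notes name GCRMA, with no version. The authors' deposited values are linear ratios, scaled per probe set to the median of the 12 arrays. This follows from the values: of the 15617 probe sets deposited, 12064 had a median of 1 within 1e-06, 3553 had one below 1 and 0 had one above. The divisor's lower limit and the absolute level are not given in the sources used here. Raw scanner files were not used here, so the arrays' background could not be checked.

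No test used the 115 control probe sets. Log2 ratios were fitted with limma 3.58.1 in R 4.3.3 (lmFit and eBayes, 4 groups of 3 arrays, 8 residual degrees of freedom), with contrasts for the day change in TCDD fins, in vehicle fins, and their difference. P-values are two-sided, and Benjamini-Hochberg adjustment ran over all 15502 probe sets, with a threshold of 0.05. Fits were also run on simulated data with independent noise in every probe set, which lack the split seen between the TCDD arrays. The submitters' platform annotation gave 1 gene symbol to 10795 probe sets, several to 135 and none to 4572. Only probe sets with 1 symbol were named, and a gene list used 1 probe set per gene, that of highest mean ratio.

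For each direction, as many as 15 genes were named by size of day change among those at an unadjusted p under 0.05 and no overlap. Also named were up to 4 per list of lowest p, up to 6 per direction of lowest p in the difference, and a fixed set. That set held AHR-linked genes together with rspo1, sox9b, fzd7a, kera, mb, and1 and and2. Genes called for TCDD against vehicle on both days, the 25 widest genes, and genes moving oppositely in TCDD and vehicle fins were added after the values were seen. The members and lists were chosen with earlier results of these data known. Alternatives covered scaling, filtering, moderation, array weights, a replicate block, a block for hybridisation control level and single arrays left out, and 2 settings that leave out a pair of arrays were added after the values were seen. The number of arrays limits the precision.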

Additional observations from a re-analysis of the deposited data

Results flagged for a closer look

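In 14 of 15502 probe sets every array of 3 dpa lay on one side of every array of 2 dpa in TCDD fins and on the other side in vehicle fins. Without overlap in TCDD fins alone were 3.43% of all probe sets on the higher and 2.12% on the lower side, and in vehicle fins 5.86% and 5.24%. The 6 described here are those of the 14 with a single gene symbol and an unadjusted p under 0.05 for the TCDD day change. None of the 6 passed the test of the difference (adjusted p = 0.9999 for each in limma). The homeobox gene hoxb5a read 1.06, 1.21 and 1.42 at 3 dpa, against 0.818, 0.857 and 0.783 at 2 dpa in TCDD fins and 0.827, 0.795 and 0.74 at 3 dpa, against 0.828, 0.962 and 0.845 at 2 dpa in vehicle fins, a log2 difference of 0.73, SE 0.16. The muscle Z-disc gene myoz1b read 1.39, 1.86 and 1.7 at 3 dpa, against 1.05, 1.09 and 1.16 at 2 dpa in TCDD fins and 0.665, 0.712 and 0.763 at 3 dpa, against 0.781, 0.783 and 0.773 at 2 dpa in vehicle fins, a difference of 0.71, SE 0.16. The adhesion receptor gene adgrl3.1 had the opposite direction, with 0.907, 0.901 and 0.919 at 3 dpa, against 1.18, 0.957 and 1.18 at 2 dpa in TCDD fins and 1.35, 1.25 and 1.07 at 3 dpa, against 0.994, 1.01 and 0.93 at 2 dpa in vehicle fins, a difference of −0.59, SE 0.16. The differences were 0.39, SE 0.12 for matr3l1.2, 0.31, SE 0.11 for the BMP receptor gene bmpr1aa and 0.30, SE 0.12 for ccdc61. These genes were found by their pattern, so their values are descriptions.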

How the results depend on the processing

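Limma called 0 probe sets for the TCDD day change under every setting but one, the joint omission of TCDD 2 dpa array 3 and TCDD 3 dpa array 2, which gave 364. That setting was added after the values were seen and its arrays were chosen by those values. The higher and lower counts at an unadjusted p under 0.05 were 204 and 144 with only the 6 TCDD arrays, 186 and 119 in the unmoderated test, 786 and 576 with array weights, 560 and 379 with the hybridisation control level as a block, 626 and 467 with TCDD 3 dpa array 2 and vehicle 3 dpa array 3 left out, and 1318 and 1001 with the first pair left out. Leaving out 1 array gave 215 to 886 higher and 135 to 620 lower. The replicate block gave 0 calls, with 495 higher and 373 lower at an unadjusted p under 0.05. The deviations of same-numbered TCDD arrays from their group means correlated at −0.234, 0.493 and 0.33, so the numbers were not taken to pair the samples. In vehicle fins 26 probe sets were called with the hybridisation control block and 0 otherwise. There the level of the block is estimated from TCDD 3 dpa array 2 alone, since all vehicle 3 dpa arrays and no vehicle 2 dpa array read high. For the difference, 15 were called with that block, 60 with the first pair left out and 0 otherwise. In TCDD fins that block leaves the same estimates as omitting TCDD 3 dpa array 2, by its construction. The cause of these shifts was not tested.

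Over 219 named probe sets and their alternatives, the sign turned in 105 of 5228 values, in 41 probe sets. Of these values 20 passed the threshold, all with TCDD 2 dpa array 3 and TCDD 3 dpa array 2 left out. None of the 20 had turned, but that pair was chosen by its values, so this is no support for a day change. With array weights, the sign turned for and1 to −0.0085, and3 to −0.011, cyp1a to −0.26, cyp1c1 to −0.091, hsp70.3 to 1.68 and phkg2 to −0.0093. With the hybridisation control level as a block, and identically with TCDD 3 dpa array 2 and vehicle 3 dpa array 3 left out, the sign turned for and1 to −0.039, cry5 to 0.87, cyp1a to −0.36, cyp1c1 to −0.14, another cyp1c1 probe set to −0.0072, hsp70.3 to 1.92, hsp90ab1 to −0.010, per2 to 0.20 and phkg2 to −0.0070. With TCDD 2 dpa array 3 and TCDD 3 dpa array 2 left out, the sign turned for and1 to −0.016, and3 to −0.089, bmal1a to 0.022, cry5 to 0.36, cyp1a to −0.46, cyp1c1 to −0.25, another cyp1c1 probe set to −0.031, dlx4b to −0.10, hk2 to 0.10, hsp70.3 to 2.99, phkg2 to −0.0056, racgap1 to 0.0068, another sox9b probe set to −0.018 and tbx5a to −0.015. Under quantile normalization, the sign turned for arg2 to −0.33, cyp1a to −0.16, cyp1c1 to −0.12, fzd7a to −0.16, hsp90aa1.2 to −0.47, mb to 0.097, mpx to −0.055, phkg2 to −0.028, ptgdsb.2 to −0.090, tiparp to −0.078 and tph2 to −0.14. With arrays centred on their median, the sign turned for cyp1a to −0.0056 and phkg2 to −0.0040. Leaving out 1 array at a time turned the sign of 31 named probe sets, with ranges for DrAffx.2.29.S1_at from −0.73 to 0.12, a probe set with no symbol from −0.076 to 0.27, and1 from −0.17 to 0.20, and2 from −0.070 to 0.21, another cyp1c1 probe set from −0.0072 to 0.15, arg2 from −0.60 to 2.15, coasy from −0.11 to 0.035, col1a1a from −0.032 to 0.27, cry5 from −1.18 to 0.87, cygb1 from −0.47 to 0.0063, cyp1a from −0.36 to 0.20, cyp1c1 from −0.14 to 0.37, hsp70.3 from −1.39 to 1.92, hsp90aa1.2 from −0.70 to 2.20, hsp90ab1 from −0.010 to 0.27 and lyz from −0.36 to 1.89. The remaining ranges were, for mb from −0.34 to 0.16, mgll from −1.86 to 0.28, myh9a from −2.92 to 0.095, ncf1 from −0.64 to 1.3, per2 from −1.86 to 0.20, phkg2 from −0.073 to 0.085, plekhh1 from −2.06 to 0.033, racgap1 from −0.27 to 0.0050, rcn3 from −2.08 to 0.046, slc16a3b from −0.18 to 1.94, smyhc1 from −0.28 to 1.85, sox9b from −0.19 to 1.5, srgn from −0.33 to 1.90, steap4 from −0.38 to 2.54 and tiparp from −0.10 to 0.29.

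Among list medians, Wnt signalling moved to −0.25 and notochord to 0.24 without TCDD 3 dpa array 2, cholesterol synthesis to 0.11, and the same values came with the hybridisation control block and with TCDD 3 dpa array 2 and vehicle 3 dpa array 3 left out. Array weights gave −0.19 for Wnt signalling and 0.26 for notochord, and the mean over all probe sets of a gene gave −0.21 for Wnt signalling. Leaving out probe sets with a median below 1 gave 0.26 for Hedgehog signalling and 0.46 for notochord. With the first pair left out, medians were −0.28 for Wnt signalling, −0.035 for BMP and TGF-beta signalling, 0.39 for epidermis, −0.27 for extracellular matrix, 0.54 for inflammation, 0.11 for cholesterol synthesis, 0.24 for glycolysis and −0.026 for Hox genes.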
